A study of Mus musculus with 12 samples.

Results

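The genes described here code for the nuclear pore and for the carriers that move cargo through it, in cultured mouse myeloid progenitors with and without added Myc and in both genotypes of a Zfx deletion study. They were chosen by symbol alone: every gene on the array whose only symbol begins with Nup, Ipo, Kpna, Kpnb, Xpo or Tnpo followed by a number, together with Xpot. The rule found 53 probe sets for 43 genes, among 19938 genes measured. Of these, 41 had a mean intensity above that of the median probe set, and the other two, Kpna7 and Nup62cl, lay at or under it.

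The study measured 12 gene arrays of RNA from c-Kit+ bone marrow cells of mice, in 4 groups of 3 arrays. All mice carried CreER, a Cre recombinase that tamoxifen switches on, and all received tamoxifen, 5 mg a day for 3 days. The genotype labelled Zfx ko had a floxed Zfx gene (Zfx fl/y CreER), and the genotype labelled Zfx wt had an unmodified one (Zfx wt/y CreER), so that the controls carried the recombinase and got the drug too. The promoter that drives CreER is not given in the sources used here. Either genotype received a Myc retrovirus that carries a GFP marker or a control retrovirus carrying GFP, which gives the groups Myc ko, GFP ko, Myc wt and GFP wt. After infection the cells stayed 48 hours in medium with 20% serum and 10 ng/mL each of the cytokines SCF, IL-3 and IL-6, were then sorted for GFP and were grown for another 4 days. The labels do not say whether arrays of a group came from separate mice or cultures, so p-values measure the spread between these arrays, which may be technical. The series asks how loss of Zfx changes what Myc does to gene expression.

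A nuclear pore is a ring-shaped channel through the nuclear envelope. Scaffold nucleoporins of the Y complex and the inner ring hold it in place, nucleoporins with phenylalanine-glycine repeats fill the channel, and filaments and a basket reach out on its cytoplasmic and nuclear faces. Importins carry proteins in and exportins carry proteins and RNAs out, with the direction set by the small GTPase Ran. Myc is a transcription factor known for driving growth, ribosome production and proliferation in blood progenitors, and Zfx is an X-linked zinc finger transcription factor needed for the self-renewal of blood stem cells.

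The Zfx probe set did not separate the genotypes. With the Myc virus its intensity was 1036, 1116 and 991 on the arrays labelled Zfx ko, against 1019, 991 and 966 on those labelled wt, a log2 difference of 0.08 (limma adjusted p = 0.789). With the GFP virus it was 996, 972 and 1094 in ko, against 862, 987 and 989 in wt, a log2 difference of 0.11 (limma adjusted p = 0.619). The stretch of the transcript that these probes read is not given in the sources used here, so a deletion elsewhere in the gene would not be seen, and "ko" and "wt" below are the labels' names only. The Myc probe set was 1.87-fold higher with the Myc virus in ko and 1.74-fold higher in wt (limma adjusted p = 0.000342 and 0.000724), with no overlap between virus groups. Array medians lay between 127 and 137, and 0 pairs of arrays were identical.

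One array stood apart for these genes. On the first GFP ko array the 43 genes lay at a median log2 deviation of -0.32 from their own means over the 12 arrays, whereas the Myc arrays lay between 0.08 and 0.18 and the other GFP arrays between -0.15 and -0.07. All 19938 genes on that array had a median deviation of 0.02. Counts of the 43 genes called with Myc in ko and between genotypes are also given without it below. Most other counts were made with it only.

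**Figure D1:**
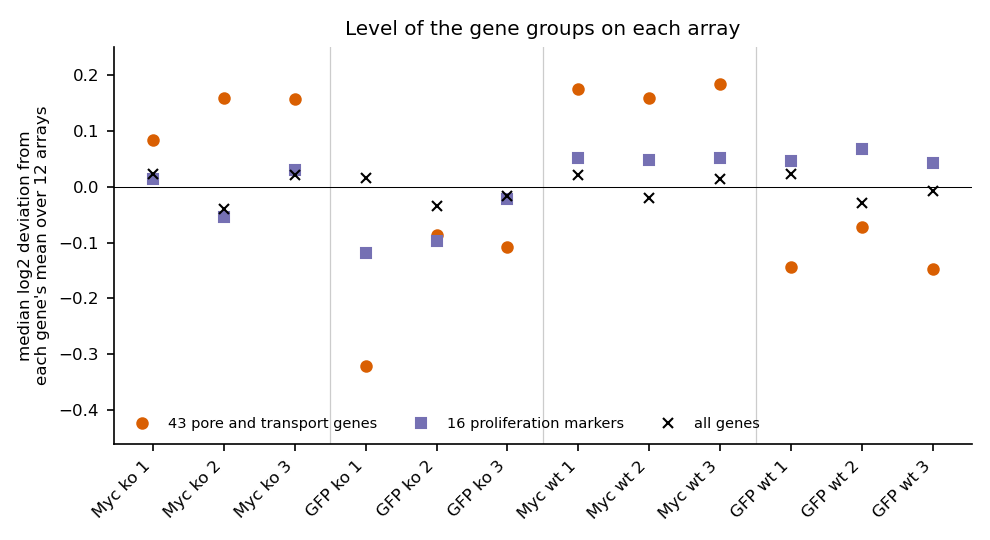
For each of the 12 arrays, the points show the median log2 deviation of 43 pore and transport genes, 16 proliferation markers and all 19938 genes from each gene's own mean over the arrays. The pore and transport genes lie above 0 on all 6 Myc arrays and below 0 on all 6 GFP arrays, lowest on GFP ko 1 at -0.32.

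Many pore and transport genes rose with Myc in both genotypes, and none fell past the threshold without the replicate block described below. In ko cells 23 of the 43 genes were higher with Myc and 0 were lower (limma, Benjamini-Hochberg adjusted p under 0.05 over all genes), where 8.58% of all genes were higher and 4.59% lower. In wt cells 19 were higher and 0 lower, where 6.17% of all genes were higher and 3.11% lower. At an unadjusted limma p under 0.05 the counts were 31 higher and 0 lower in ko and 29 higher and 0 lower in wt. Of all 19938 genes, 2930 were then higher and 1860 lower in ko, and 2563 higher and 1509 lower in wt. The median log2 difference of the 43 genes was 0.31 in ko and 0.27 in wt, against 0.0061 and 0.0036 over all genes. Since 41 of the 43 lie above the median probe set's intensity, the share among the 10744 genes above it is a closer background, though not a matched one: 15.2% were higher and 7.99% lower in ko, and 11% higher and 5.51% lower in wt. The median probe set read 131. Apart from Kpna7, Nup62cl and Nup210l, the 43 genes had mean intensities from 962 (Ipo4) to 6274 (Kpna2). The share among genes as bright as these was not computed.

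The rises were modest in size. The largest was 1.57-fold in ko, for Ipo11, and 1.64-fold in wt, for Ipo4, and 5 genes in ko and 3 in wt reached 1.5-fold past the threshold. Of the 43 genes, 42 had a positive log2 difference in ko and 41 in wt, where 52.4% and 51.4% of all genes did. The 3 Myc arrays lay above all 3 GFP arrays for 33 genes in ko and 29 in wt, which 15.6% and 15.1% of all genes did, and below them for 0 genes in either, which 9.88% and 9.44% of all genes did. With the replicate number as a block, which treats same-numbered arrays as pairs, 33 genes were higher in ko and 29 in wt (14.5% and 12.2% of all genes), and 1, Nup210l, was lower in ko and 0 in wt (10.4% and 8.25% of all genes). Without the first GFP ko array 18 were higher in ko, with a median log2 difference of 0.25.

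**Figure D2:**
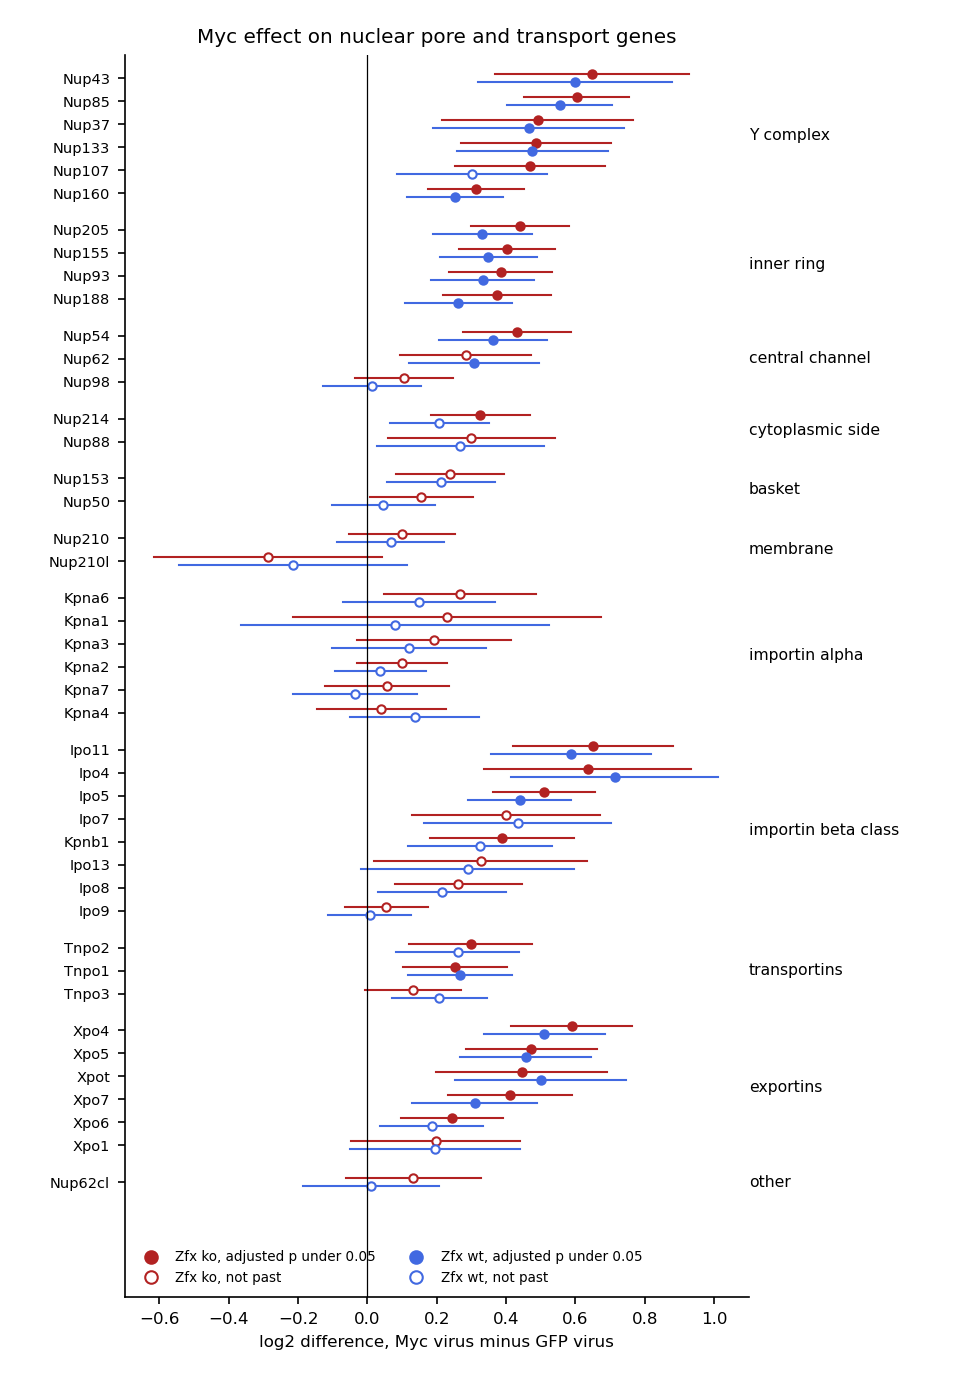
Each row is a gene, grouped by its place in the pore or transport machinery, and points show the log2 difference between Myc and GFP arrays in Zfx ko (red) and Zfx wt (blue) with 95% intervals, filled where limma's adjusted p was under 0.05 (n = 3 arrays a group). The Y complex genes shown other than Nup107 in wt, the inner ring and most exportins sit to the right of 0 with filled points, and all 6 importin alpha genes have open points in both genotypes.

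The Y complex is the branched scaffold of the outer rings. All 6 members taken by symbol (Nup107, Nup133, Nup160, Nup85, Nup37 and Nup43) were higher with Myc in ko, with a median log2 difference of 0.49, and 5 of 6 in wt, with a median of 0.47. Leaving out 1 array at a time gave 4 to 6 of the 6 in ko and 1 to 6 in wt. Seh1l, Sec13 and Ahctf1 of this complex are counted with the partners below, Sec13 and Ahctf1 named after their values were seen. Seh1l was higher in both genotypes. Sec13 gave 1.12-fold in ko and 1.03-fold in wt (limma adjusted p = 0.0621 and 0.807, and 0.0416 in ko with the replicate block). Ahctf1 gave 1.31-fold in ko and 1.18-fold in wt (limma adjusted p = 0.0246 and 0.171, and 0.0149 in wt with the block). Nup85, part of a short arm of the Y, had the lowest p of the 43 genes in both genotypes. Its intensity was 1804, 1688 and 1941 on the Myc ko arrays, against 1143, 1197 and 1232 on the GFP ko arrays, which was 1.52-fold (95% interval 1.37 to 1.69, adjusted p = 0.000949). In wt it was 1853, 1741 and 1929 with Myc, against 1327, 1246 and 1188 with GFP, which was 1.47-fold (95% interval 1.32 to 1.63, adjusted p = 0.00202). Every Myc array lay above every GFP array, of either genotype.

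Nup107, a stalk protein that gives the complex one of its names, read 1269, 1516 and 1513 in Myc ko, against 894, 1094 and 1123 in GFP ko, which was 1.38-fold (95% interval 1.19 to 1.61, adjusted p = 0.0111). In wt the values were 1213, 1341 and 1326 with Myc, against 1009, 1072 and 1066 with GFP, which was 1.23-fold (95% interval 1.06 to 1.43, adjusted p = 0.0898); with the replicate block the adjusted p was 0.00486. The groups did not overlap in either genotype, and the third Myc ko array decides the ko call, since the adjusted p was 0.0511 without it. Nup43, a beta-propeller protein of the short arm, was 1.57-fold higher in ko and 1.51-fold in wt, the largest changes among the 6. Nup160 had the smallest in ko, at 1.24-fold.

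The inner ring ties the scaffold to the membrane and to the channel. All 4 measured members were higher with Myc in both genotypes, with medians of 0.39 in ko and 0.33 in wt on the log2 scale. With 1 array left out at a time, all 4 passed in ko in every fit and 1 to 4 in wt. Nup205, one of the large solenoid proteins of the ring, read 3293, 3243 and 3578 in Myc ko, against 2326, 2496 and 2632 in GFP ko, which was 1.36-fold (95% interval 1.23 to 1.5, adjusted p = 0.00223). In wt it read 3358, 3198 and 3502 with Myc, against 2659, 2751 and 2580.5 with GFP, which was 1.26-fold (95% interval 1.14 to 1.39, adjusted p = 0.0105). The Myc arrays all lay above the GFP arrays, with the smaller gap in wt, and the wt call was lost without the third Myc wt or the third GFP wt array.

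Nup155, which links the ring to the membrane, read 2222, 2364 and 2327 in Myc ko and 1595, 1799.5 and 1843 in GFP ko, which was 1.32-fold (95% interval 1.20 to 1.46, adjusted p = 0.00303). The wt arrays gave 2182, 2087 and 2117 with Myc and 1723, 1599 and 1695 with GFP, which was 1.27-fold (95% interval 1.16 to 1.40, adjusted p = 0.00806). No array crossed between virus groups. Nup93, the adaptor that recruits the channel proteins, read 1683, 1708 and 1771 in Myc ko, against 1231, 1332 and 1398 in GFP ko, which was 1.30-fold (95% interval 1.18 to 1.45, adjusted p = 0.00487). The wt arrays gave 1479.9, 1382 and 1543 with Myc, against 1193, 1213 and 1094 with GFP, which was 1.26-fold (95% interval 1.14 to 1.39, adjusted p = 0.0123). Myc arrays again lay above GFP arrays, and all Myc ko values lay above all Myc wt values. The wt call of Nup93 was lost without the third Myc wt or the third GFP wt array.

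The promoters of Nup93 and Nup188 are shown because both genes were higher with Myc in both genotypes and their windows hold CACGTG, the palindromic E-box to which Myc binds with its partner Max. The 250 bases before the start of each gene are printed from RefSeq's GRCm38.p6 table in the direction of transcription, with CACGTG and AGGCCT, the core of the motif known for Zfx, in capitals. Nup93 lies on the plus strand at chr8:94214314-94214563 and Nup188 on the plus strand at chr2:30286166-30286415.
Nup93: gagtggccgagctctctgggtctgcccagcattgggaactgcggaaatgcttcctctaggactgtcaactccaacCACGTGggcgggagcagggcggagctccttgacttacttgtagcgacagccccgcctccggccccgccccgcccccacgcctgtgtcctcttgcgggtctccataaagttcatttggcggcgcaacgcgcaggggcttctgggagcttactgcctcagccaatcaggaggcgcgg
Nup188: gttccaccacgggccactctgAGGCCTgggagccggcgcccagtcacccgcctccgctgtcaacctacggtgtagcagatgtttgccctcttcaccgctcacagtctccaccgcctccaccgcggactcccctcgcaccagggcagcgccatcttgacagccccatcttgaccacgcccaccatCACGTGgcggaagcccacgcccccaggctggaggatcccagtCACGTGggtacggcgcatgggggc

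RefSeq's table lists 2 starts for Nup93. The CACGTG begins 175 bases before the one shown, and the window of the other holds 0. Nup188 holds 2, at 66 and 24 bases before the start, and an AGGCCT at 229 bases before it. Over windows of 300 bases (250 before to 50 after the start), which were found for 35 of the 43 genes (not for Kpna1, Kpna3, Kpna6, Nup210l, Nup43, Nup85, Xpo4 and Xpo7), CACGTG occurred in 7 (20%): Ipo4, Ipo7, Nup188, Nup54, Nup93, Tnpo2 and Xpot. It occurred in 8.09% of 27025 mouse genes with such a window. A gene with several listed starts was counted if any of its windows held the motif. Both motifs read the same on either strand, and a match to one cannot overlap a match to the other. Of the 7 genes with CACGTG, 6 were higher with Myc in ko and 5 in wt, and of the 28 without it 13 were higher in ko and 10 in wt. A match of 6 letters is a description of the sequence and does not show binding. Nup188, printed here after its values were seen, read 1888, 1814 and 2023 in Myc ko, against 1394, 1469 and 1558 in GFP ko, which was 1.30-fold (95% interval 1.16 to 1.44, adjusted p = 0.00681). On wt arrays it read 2181, 1901 and 2160.5 with Myc, against 1683, 1749.7 and 1764 with GFP, which was 1.20-fold (95% interval 1.08 to 1.33, adjusted p = 0.042). That wt call held in 5 of the 12 fits that leave out 1 array.

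Of the 3 central channel genes taken by symbol, 1 was higher with Myc in ko and 2 in wt. Nup54, which forms the channel trimer with Nup62 and Nup58, was higher with Myc, by 1.35-fold in ko and 1.29-fold in wt (limma adjusted p = 0.00375 and 0.0106), and the wt call was lost without the third GFP wt array. Nup58 is on the array as the partner Nupl1, named after its values were seen. It gave 1.09-fold in ko and 1.06-fold in wt (limma adjusted p = 0.332 and 0.680) and was not called with the replicate block either. Nup62 read 3142, 3103 and 3464 in Myc ko, against 2363, 2830.3 and 2804 in GFP ko, which was 1.22-fold (95% interval 1.07 to 1.39, adjusted p = 0.0527). In wt cells the values were 3272, 3321 and 3505 with Myc, against 2599.7, 2975 and 2601 with GFP, which was 1.24-fold (95% interval 1.09 to 1.41, adjusted p = 0.0482). The groups were apart in both genotypes, and both adjusted p-values lay close to the threshold. The wt call held in 2 of the 12 fits that leave out 1 array, and with the replicate block the adjusted p in ko was 0.0168.

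Nup98, a mobile channel protein whose transcript also codes for the scaffold protein Nup96 and which is known from fusion genes in myeloid leukaemia, read 3700.0, 4046 and 3919 in Myc ko, against 3371, 3805 and 3674 in GFP ko. That was 1.08-fold (95% interval 0.975 to 1.19, adjusted p = 0.402). For wt the intensities were 3740.4, 3696 and 3755 with Myc, against 3458, 3887 and 3759 with GFP, which was 1.01-fold (95% interval 0.915 to 1.11, adjusted p = 0.97). The virus groups overlapped in both genotypes and the 3 Myc wt arrays lay inside the range of the GFP wt arrays.

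On the cytoplasmic face Nup214, which anchors mRNA export factors, read 2769, 2672 and 2911 in Myc ko, against 2189, 2177 and 2295 in GFP ko, which was 1.25-fold (95% interval 1.14 to 1.38, adjusted p = 0.00869). In wt it read 3274, 2834 and 3193 with Myc, against 2627, 2619 and 2795 with GFP, which was 1.15-fold (95% interval 1.05 to 1.28, adjusted p = 0.0768). With the replicate block that adjusted p was 0.0168. Myc arrays lay above GFP arrays in both genotypes. Its partner Nup88 gave 1.23-fold in ko and 1.20-fold in wt and passed in neither (limma adjusted p = 0.109 and 0.184; 0.0116 and 0.0239 with the replicate block). The basket proteins Nup153 and Nup50 gave 1.18-fold and 1.11-fold in ko without passing (limma adjusted p = 0.0501 and 0.182; 0.00853 and 0.0437 with the replicate block). In wt Nup153 gave 1.16-fold (limma adjusted p = 0.0953, and 0.018 with the block). Nup50 gave a log2 difference of 0.05 in wt (limma adjusted p over all probe sets = 0.861) and was not called with the block.

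Nup210, a membrane-spanning protein that encircles the pore, was not called with Myc in either genotype. It read 3183, 3138 and 3227 in Myc ko, against 3127, 2779.7 and 3015 in GFP ko, which was 1.07-fold (95% interval 0.963 to 1.19, adjusted p = 0.5). The wt arrays gave 3879, 3658 and 3932 with Myc, against 3809, 3309 and 3849.8 with GFP, which was 1.05-fold (95% interval 0.942 to 1.17, adjusted p = 0.762). The groups differed more between genotypes than between viruses, as described below. Its relative Nup210l was dim, at mean intensities of 46.9 to 194 over its 9 probe sets, and the brightest gave a log2 difference of -0.29 in ko and -0.21 in wt (limma adjusted p = 0.293 and 0.537, and 0.0267 in ko with the replicate block).

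Among the carriers, the importin beta class, which ferries cargo through the pore, had 4 of 8 members higher with Myc in ko and 3 of 8 in wt. These counts were 7 of 8 and 6 of 8 with the replicate block. Ipo5, an importer of ribosomal proteins and core histones, read 3473, 3421 and 3598 in Myc ko, against 2218, 2515 and 2658 in GFP ko, which was 1.42-fold (95% interval 1.28 to 1.58, adjusted p = 0.00154). On wt arrays it read 3175, 3113 and 3316 with Myc, against 2363, 2428 and 2294 with GFP, which was 1.36-fold (95% interval 1.22 to 1.5, adjusted p = 0.00445). Myc and GFP arrays did not overlap.

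Ipo11, which imports ubiquitin-conjugating enzymes, read 2176, 2478 and 2547 in Myc ko, against 1308, 1701 and 1598 in GFP ko, which was 1.57-fold (95% interval 1.34 to 1.84, adjusted p = 0.00338). In wt cells the values were 2115, 2171 and 2248 with Myc, against 1404, 1604 and 1354 with GFP, which was 1.5-fold (95% interval 1.28 to 1.76, adjusted p = 0.00752). Again the virus groups were apart in both genotypes. Ipo4, an importer of histones, was 1.55-fold higher in ko and 1.64-fold in wt (limma adjusted p = 0.0119 and 0.0096), and the ko call was lost without the third Myc ko array.

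Kpnb1, importin beta 1, the carrier of the classical import route, read 2933, 3276 and 3061 in Myc ko, against 2009, 2592 and 2517 in GFP ko, which was 1.31-fold (95% interval 1.13 to 1.51, adjusted p = 0.0212). For wt the intensities were 3002, 3224 and 3155 with Myc, against 2388, 2665 and 2440.2 with GFP, which was 1.25-fold (95% interval 1.08 to 1.45, adjusted p = 0.0576). The replicate block gave an adjusted p of 0.00573 in wt. All Myc arrays exceeded all GFP arrays of the same genotype, and the ko call was lost without the second or the third Myc ko array. Ipo7, Ipo8 and Ipo13 gave 1.32, 1.20 and 1.25-fold in ko and passed only with the replicate block (limma adjusted p without it = 0.0565, 0.0641 and 0.175). In wt the block added Ipo7 and Ipo13, at 1.35 and 1.22-fold (limma adjusted p = 0.0519 and 0.284, and 0.0148 and 0.012 with the block). Ipo9, another histone importer, gave 1.04-fold in ko and 1.00-fold in wt, with intervals of 0.956 to 1.13 and 0.925 to 1.09.

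The importin alpha genes, whose products link cargo with a classical import signal to Kpnb1, gave no calls without the replicate block. Of 6 measured, 0 were called with Myc in ko and 0 in wt, and their median log2 difference was 0.15 in ko and 0.10 in wt; whether they differ from the beta class was not tested. Kpna2 had 6411, 6501 and 6341 in Myc ko, against 5533, 6145 and 6324 in GFP ko, which was 1.07-fold (95% interval 0.979 to 1.17, adjusted p = 0.387). In wt it had 6312, 6581 and 6403 with Myc, against 6024, 6554 and 6237 with GFP, which was 1.03-fold (95% interval 0.937 to 1.12, adjusted p = 0.877). Its other two probe sets gave log2 differences of 0.08 and 0.11 in ko and of 0.05 and 0.06 in wt, none past the threshold. With the replicate block Kpna1, Kpna3 and Kpna6 were higher in ko, by 1.17, 1.14 and 1.20-fold (limma adjusted p with the block = 0.0333, 0.0132 and 0.0142). At an adjusted p under 0.05 without the block they were not called, nor were any in wt with or without it. In ko 1 of the 6 was higher after a second quantile normalization, and 1 without the second GFP ko array.

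Of the exportins, 5 of 6 were higher with Myc in ko and 4 of 6 in wt. Xpo4, which exports the translation factor eIF5A, read 2650.2, 2695 and 2990.0 in Myc ko, against 1634, 1926 and 1994 in GFP ko, which was 1.5-fold (95% interval 1.33 to 1.70, adjusted p = 0.00169). In wt it read 2807, 2661 and 2885 with Myc, against 1975, 1904 and 1983 with GFP, which was 1.42-fold (95% interval 1.26 to 1.61, adjusted p = 0.00459). The lowest Myc array lay well above the highest GFP array in both genotypes.

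Xpo5, the exporter of precursor microRNAs, read 1593, 1579 and 1675 in Myc ko, against 1072, 1125 and 1309 in GFP ko, which was 1.39-fold (95% interval 1.22 to 1.58, adjusted p = 0.00571). The wt arrays gave 1846, 1626 and 1863 with Myc, against 1238, 1259.8 and 1388 with GFP, which was 1.37-fold (95% interval 1.20 to 1.56, adjusted p = 0.0091). Virus groups were apart in both genotypes. Xpot, the exporter of tRNAs, was 1.36-fold higher in ko and 1.41-fold in wt (limma adjusted p = 0.0251 and 0.0195), calls that held in 9 and 8 of the 12 fits that leave out 1 array.

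Xpo7, an exporter of wide cargo range that is also known from nuclear changes in maturing mouse red cells, read 1989, 2039.8 and 1979.8 in Myc ko, against 1324, 1626 and 1586 in GFP ko, which was 1.33-fold (95% interval 1.17 to 1.51, adjusted p = 0.00851). On wt arrays it read 2325, 2442 and 2347 with Myc, against 1759.8, 2029 and 1961 with GFP, which was 1.24-fold (95% interval 1.09 to 1.40, adjusted p = 0.0389). Myc arrays lay above GFP arrays of the same genotype, while the highest GFP wt array exceeded the lowest Myc ko arrays. The wt call held in 4 of the 12 fits that leave out 1 array.

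Xpo1 (CRM1), the main exporter of proteins and the target of drugs used against blood cancers, read 3209, 3516 and 3134 in Myc ko, against 2417, 3126 and 3108 in GFP ko, which was 1.15-fold (95% interval 0.968 to 1.36, adjusted p = 0.346). In wt cells the values were 3139.6, 3414 and 2999 with Myc, against 2835, 3039 and 2487 with GFP, which was 1.14-fold (95% interval 0.967 to 1.36, adjusted p = 0.395). The virus groups overlapped in wt and were barely apart in ko, where the first GFP ko array was far below the others, and Xpo1 was the one exportin called in neither genotype. The transportins Tnpo1 and Tnpo2, which carry RNA-binding proteins, were 1.19 and 1.23-fold higher in ko; Tnpo1 passed in wt as well, at 1.20-fold, and Tnpo3, the importer of SR splicing factors, passed in neither (limma adjusted p = 0.234 in ko and 0.066 in wt, and 0.0192 in wt with the replicate block). Tnpo2 gave 1.20-fold in wt (limma adjusted p = 0.0746, and 0.00733 with the block), so that with the block all 3 transportins were higher in wt.

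**Figure D3:**
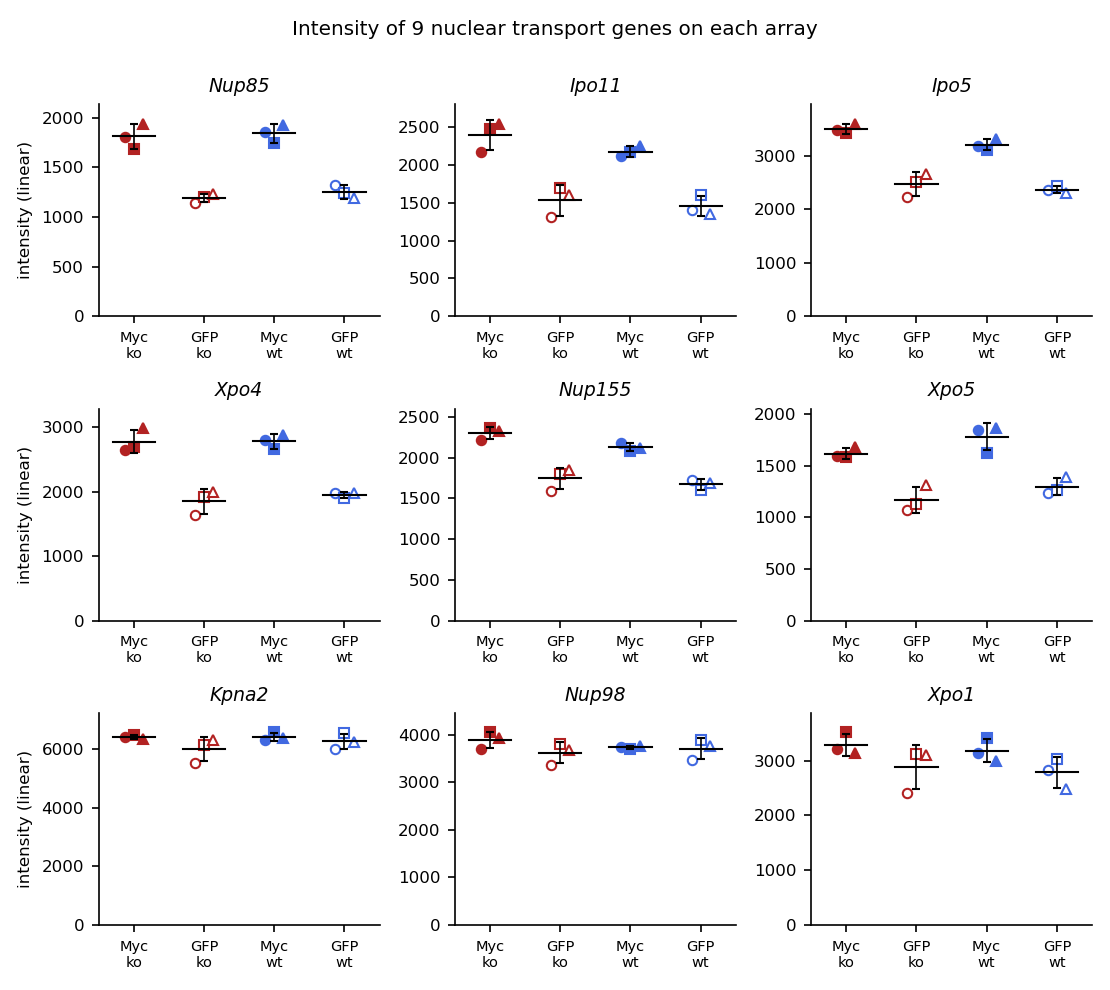
Linear intensity of 9 genes on each of the 12 arrays, with the group mean (bar) and SD (whiskers), circle, square and triangle marking replicates 1, 2 and 3. Nup85, Ipo11, Ipo5, Xpo4, Nup155 and Xpo5 have every Myc array above every GFP array of the same genotype; Kpna2, Nup98 and Xpo1, taken whatever their values, were not called.

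The same pathway beyond these names moved in part. Of 25 measured partners (27 were listed), 12 were higher with Myc in ko and 1 lower, and 8 were higher and 0 lower in wt. Over all genes 8.58% were higher and 4.59% lower in ko, and 6.17% higher and 3.11% lower in wt. The block gave 15 higher and 1 lower in ko, and 11 higher and 1 lower in wt. With it 14.5% of all genes were higher and 10.4% lower in ko, and 12.2% higher and 8.25% lower in wt. Rcc1, which loads Ran with GTP on chromatin, was 1.58-fold higher in ko and 1.42-fold in wt (limma adjusted p = 0.00134 and 0.00596). Seh1l, another Y complex protein, was 1.51-fold higher in ko and 1.33-fold in wt (limma adjusted p = 0.00109 and 0.00761). Nupl2 and Rae1, pore proteins linked to mRNA export, were 1.42 and 1.27-fold higher in ko, and 1.34 and 1.26-fold in wt. Aaas, a pore scaffold protein, was 1.25-fold higher in ko and 1.21-fold in wt. Phax, an adaptor for export of small nuclear RNAs, was 1.46-fold higher in ko and 1.30-fold in wt. Cse1l, which returns importin alpha to the cytoplasm, was 1.27-fold higher in ko and 1.20-fold in wt. The partner that was lower in ko was Nxt2, a relative of an mRNA export cofactor, at a ratio of 0.789 (limma adjusted p = 0.0281); it is named after its values were seen.

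No difference in the Myc effect between genotypes was detectable. Of the 43 genes, 18 were higher with Myc in both, which is 78.3% of the ko list and 94.7% of the wt list. Kpnb1, Nup107, Nup214, Tnpo2 and Xpo6 passed in ko only and Nup62 in wt only. With the replicate block all 6 passed in both genotypes (limma adjusted p with the block = 0.0334 for Xpo6 in wt, and as given above for the others). The interaction between virus and genotype called 0 of the 43, 0% of all genes, and 0 with the replicate block, which called 0.00502% of all genes. At an unadjusted limma p under 0.05 without the block, 0 of the 43 passed. Of all 19938 genes 175 were then higher and 168 lower. The lowest unadjusted limma p among the 43 was 0.224, for Nup214, whose Myc effect was 0.12 ± 0.09 larger in ko (log2, SE). Log2 differences were larger in ko for 35 of the 43, and for 51.4% of all genes. The median excess of the 43 was 0.05, which was -0.01 without the first GFP ko array. Across the 43 genes the ko and wt differences correlated at r = 0.95 (Spearman's rho = 0.95); the genotypes share no arrays, but same-numbered arrays deviate together and genes are not independent replicates.

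Same-numbered arrays gave the Myc effect in pairs. In ko 39 of 43 genes were higher with Myc in all 3 pairs and 36 had their largest difference in the first pair, which holds the low GFP ko array. In wt 36 were higher in all 3 pairs, and the largest difference fell in the first pair for 16 genes, the second for 7 and the third for 20. The shares of all genes higher in all 3 pairs were not computed. Leaving out each of the 12 arrays in turn gave 16 to 24 genes higher in ko and 7 to 23 in wt; 15 of the 23 and 7 of the 19 calls held in every such fit. The wt count fell to 7 without the third GFP wt array, to 8 without the third Myc wt array and to 12 without the first Myc wt array. The ko calls lost at least once were Ipo4, Kpnb1, Nup107, Nup37, Tnpo1, Tnpo2, Xpo6 and Xpot. The 7 wt calls that held were Nup85, Nup155, Ipo4, Ipo5, Ipo11, Xpo4 and Xpo5.

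Markers of other cell types moved with Myc as well. Of 13 genes of maturing neutrophils 11 were lower with Myc in ko and 8 in wt, with summed intensities of 48971 to 58141 in Myc ko, against 82467 to 96433 in GFP ko, and of 41742 to 59054 in Myc wt, against 82439.7 to 96302 in GFP wt. Of 11 genes of mast cells and basophils 6 were lower in each genotype and 1 was higher in wt, with sums of 4289 to 8019 in Myc ko, against 12038 to 17201 in GFP ko, and of 8517 to 20177 in Myc wt, against 18936 to 25926 in GFP wt. Of 8 measured erythroid genes 5 were higher in ko and 1 in wt, with sums of 6011 to 11252 in Myc ko, against 4392 to 5062 in GFP ko, and of 4766 to 6377 in Myc wt, against 3829 to 4778 in GFP wt. Tfrc alone made up most of the wt sums, at 3430 to 4488 in Myc wt, against 2742 to 3456 in GFP wt. It read 3320 to 4043 in Myc ko, against 2594 to 3467 in GFP ko. In bulk RNA, fewer cells of a type and less RNA per cell cannot be told apart, and the part of these shifts in the pore and transport genes was not tested.

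Proliferation markers gave few calls. Of 16 measured, 1 was higher with Myc in ko and 1 lower in wt, with median log2 differences of 0.07 in ko and -0.0049 in wt. Markers of the labelled cell type, myeloid progenitors, were bright, with sums over 10 genes of 60536 to 68805 in Myc ko, against 73127 to 81208 in GFP ko, and of 70985 to 75542 in Myc wt, against 80713 to 88159 in GFP wt. Of these 10, 3 were lower with Myc in ko and 2 in wt. Of 7 monocyte and macrophage genes 0 were called with Myc in either genotype, and their sums were 3121 to 5973 in Myc ko, against 5816 to 8714 in GFP ko, and 2540.4 to 4680.3 in Myc wt, against 3638 to 7266 in GFP wt. B lymphoid markers summed to 144 to 157 over 3 genes on every array and T lymphoid markers to 256 to 305 over 4.

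Between the genotypes, as labelled, few pore and transport genes were called. Calls over all genes were also more often lower than higher in Zfx ko. With the GFP virus 3 of 43 genes (6.98%) were lower in ko and 0 higher, where 2.94% of all genes were lower and 1.17% higher. With the Myc virus 0 were lower and 0 higher, where 3.72% of all genes were lower and 1.74% higher. Among genes above the median probe set's intensity 5.23% were lower and 1.71% higher with GFP, and 6.52% lower and 2.62% higher with Myc. At an unadjusted p under 0.05 the limma fit gave 9 lower and 1 higher with GFP and 6 lower and 1 higher with Myc. Over all 19938 genes it gave 1745 lower and 1168 higher with GFP, and 1811 lower and 1345 higher with Myc. With the replicate block 8 were lower and 0 higher with GFP (7.12% and 5.12% of all genes), and 3 lower and 1 higher with Myc (8.03% and 6.05%). Medians over the 43 genes were -0.03 with GFP and 0.0044 with Myc on the log2 scale, against -0.0049 and -0.0012 over all genes. Leaving out 1 array at a time, Myc arrays included, gave 0 to 2 lower genes with GFP. Nup210, Nup214 and Xpo7 passed in 1, 3 and 2 of the 12 such fits, while their log2 differences stayed between -0.37 and -0.25, between -0.30 and -0.24 and between -0.41 and -0.25. Without the first GFP ko array 0 were lower with GFP and 1 was lower with Myc.

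The 3 genes lower in GFP ko were Nup210, Xpo7 and Nup214, and their values on every array are given above. Nup210 was at a ko to wt ratio of 0.814 with GFP (95% interval 0.732 to 0.906, limma adjusted p = 0.0417), with a mean of 2974 ± 177 in GFP ko, against 3656 ± 301 in GFP wt (SD, n = 3 each). With Myc the ratio was 0.833 (95% interval 0.749 to 0.927, limma adjusted p = 0.0551, and 0.00691 with the replicate block), with a mean of 3183 ± 44.5 in Myc ko, against 3823 ± 146 in Myc wt. All ko arrays lay below all wt arrays, whichever the virus. The same-numbered pairs gave log2 differences of -0.28, -0.25 and -0.35 with GFP and of -0.29, -0.22 and -0.29 with Myc.

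Xpo7 was at a ratio of 0.787 with GFP (95% interval 0.695 to 0.892, limma adjusted p = 0.0421), with a mean of 1512 ± 164 in GFP ko, against 1917 ± 140.2 in GFP wt. With Myc it was at 0.845 (95% interval 0.746 to 0.957, limma adjusted p = 0.135, and 0.0254 with the replicate block), and ko arrays again lay below wt arrays. Nup214 was at 0.829 with GFP (95% interval 0.750 to 0.915, limma adjusted p = 0.0439), with a mean of 2221 ± 64.8 in GFP ko, against 2680.5 ± 99.3 in GFP wt. With Myc it was at 0.899 (95% interval 0.814 to 0.993, limma adjusted p = 0.268), and the genotypes overlapped. For none of the 3 did the effect of Zfx differ between viruses past the threshold.

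Genes added by the replicate block with GFP were Nup50, Xpo6, Nup188, Kpna6 and the dim Nup210l, at ko to wt ratios of 0.839, 0.853, 0.850, 0.803 and 0.772 (limma adjusted p with the block = 0.009, 0.0201, 0.029, 0.0121 and 0.0152). Of the 8 other Nup210l probe sets, all dim, 1 passed without the block with Myc, at a log2 difference of -0.55 (limma adjusted p over all probe sets = 0.0266). With Myc the block called Nup210, Xpo7 and Nup210l lower and Nup93 higher. Nup93 was at 1.17 with Myc (95% interval 1.06 to 1.30, limma adjusted p = 0.0831, and 0.0479 with the block) and at 1.13 with GFP, and its ko arrays lay above its wt arrays with either virus. Groups apart in the downward direction were 9 of 43 with GFP and 7 with Myc, which 10.5% and 11.1% of all genes were, and 1 and 4 in the upward direction, where 7.44% and 8.4% of all genes were.

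**Figure D4:**
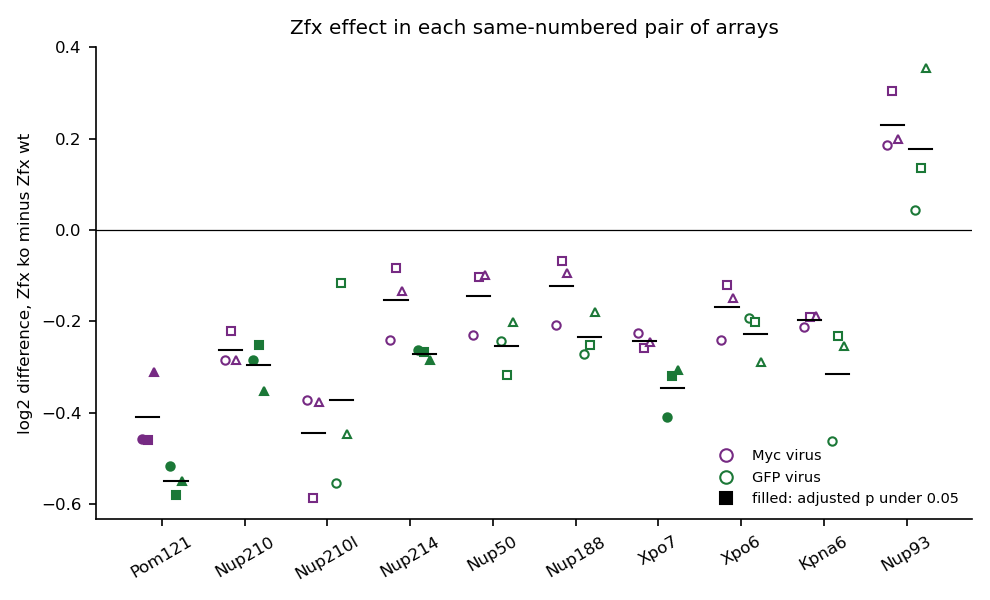
For 10 genes, points give the log2 difference between Zfx ko and Zfx wt in each same-numbered pair of arrays (circle 1, square 2, triangle 3), with the Myc virus in purple and the GFP virus in green, bars the mean, and filled points an adjusted p under 0.05 in limma. The 10 genes were picked with their values known, and each was called in a Zfx comparison with or without the replicate block. Every gene shown except Nup93 lies below 0 in all 6 pairs. Of all 43 members, 14 were lower in ko in all 3 pairs with Myc and 14 with GFP, and 11 and 3 were higher. Pom121, a partner, has the lowest mean with the GFP virus, and Nup93 lies above 0.

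Among the partners Pom121, a membrane nucleoporin, had the lowest p in both Zfx comparisons. It was at a ko to wt ratio of 0.753 with Myc, with 1776, 1811 and 2031 in ko, against 2439.5, 2492 and 2519 in wt (limma adjusted p = 0.0305). With GFP it was at 0.683, with 1351, 1521 and 1632 in ko, against 1933, 2276 and 2391 in wt (limma adjusted p = 0.00866). No ko array reached a wt array of the same virus. Nxf1, the main mRNA export receptor, was lower in ko with Myc, at 0.852 (limma adjusted p = 0.0429). These were 2 of 25 partners lower with Myc and 1 of 25 with GFP, and 0 were higher with either. Over all genes 3.72% were lower and 1.74% higher with Myc, and 2.94% lower and 1.17% higher with GFP. The replicate block gave 5 lower and 1 higher with GFP, and 2 lower and 1 higher with Myc. With it 7.12% of all genes were lower and 5.12% higher with GFP, and 8.03% lower and 6.05% higher with Myc. The genes added by the block, named after their values were seen, were Phax, Ahctf1, Nupl1 and Nupl2, lower with GFP, Nxt2, higher with GFP, and Ranbp17, higher with Myc (limma adjusted p with the block = 0.0217, 0.0149, 0.0444, 0.0261, 0.00561 and 0.00704).

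The promoter of Nup210 is shown because it was the member with the lowest p in both Zfx comparisons and because its window holds AGGCCT. The 250 bases before the start are from the minus strand of chr6:91116827-91117076 (GRCm38.p6, RefSeq), printed in the direction of transcription with AGGCCT in capitals, 170 bases before the start.
Nup210: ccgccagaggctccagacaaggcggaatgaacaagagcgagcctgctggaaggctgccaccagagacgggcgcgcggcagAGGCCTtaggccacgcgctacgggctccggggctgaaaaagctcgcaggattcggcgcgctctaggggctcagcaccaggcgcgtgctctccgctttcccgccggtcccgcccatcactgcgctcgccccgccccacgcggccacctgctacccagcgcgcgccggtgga

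AGGCCT occurred in 6 of the 35 windows (17.1%), those of Ipo4, Nup188, Nup210, Nup214, Nup98 and Tnpo2, and in 11.6% of all genes with a window. Of these 6 genes, Nup210 and Nup214 were lower in GFP ko without the block, and Nup188 as well with it. Of the 29 without the motif 0 were lower without the block and 2 with it. Xpo7, lower in GFP ko without the block, had no window and is in neither count. The same holds for Kpna6 and Nup210l, which were lower with the block. Cell type markers that moved with Zfx were 4 of 8 erythroid genes, higher in ko with Myc, and 3 of 11 mast cell and basophil genes lower in ko with Myc and 2 with GFP. Of the 16 proliferation markers 1 was lower in ko with Myc and 2 with GFP. Of the 13 neutrophil genes 1 was higher and 1 lower in ko with Myc and 1 higher with GFP, and of the 10 progenitor genes 1 was lower with Myc. Erythroid sums were 6011 to 11252 in Myc ko, against 4766 to 6377 in Myc wt, of which Tfrc gave 3320 to 4043 and 3430 to 4488. The part of these cells in the Zfx differences of the pore and transport genes was not tested.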

How the data were processed

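The authors deposited a table of linear intensity values, 1 for each probe set on each array. Per the submitters' processing notes these come from RMA, a method that corrects background, equalises array distributions and summarises probes; its version is not given in the sources used here. Log2 was taken before every fit, with no pseudocount, although the plan had assumed log2 values. Dim probe sets stayed in, and the table gives no detection calls. Of 35556 probe sets, 21789 carry 1 symbol in the probe gene table, 1621 carry several (0 of them matching the rule) and 12146 are not listed there. The probe set with the highest mean stood for each of 19938 genes.

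Sample titles gave the groups. The limma package (version 3.58.1, under R 4.3.3) fitted a mean per group over the 12 arrays, with 8 residual degrees of freedom. Its moderated p-values were adjusted over all genes (Benjamini-Hochberg, threshold 0.05), and fold intervals are 95% intervals of single genes. The fit was tested on simulated data with independent noise on each array. Those data held no shared deviation of same-numbered arrays, so that test does not cover the pairing. With 3 arrays a group, their number limits the precision.

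Replicate numbers pair the arrays in the data: same-numbered arrays had deviations that correlated at 0.40 to 0.85 (18 pairs, median 0.64). A fit with this number as a block is quoted beside members whose call changes under it and beside counts that it moves.

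Values on every array are given for the 6 members with the lowest p past the threshold in any comparison (2 where none passed) and for Kpnb1, Kpna2, Xpo1, Nup98 and Nup62; up to 6 partners past the threshold are named per comparison by lowest p, and others where the text says so. The members and the role, partner and marker lists were chosen with earlier results of these data known. The alternatives were the block, a second quantile normalization, median centring, a trended robust prior, array weights, a fit of only 2 groups, brighter genes only, all probe sets, a 1.5-fold minimum, and each array left out.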

Additional observations from a re-analysis of the deposited data

How the results depend on the processing

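The median Myc effect kept its direction under every alternative run: the median log2 difference of the 43 genes stayed between 0.25 and 0.37 in ko and between 0.25 and 0.28 in wt, and the median of all genes moved no further than -0.02 to 0.03 in any comparison. Counts moved more. Fitting only the groups compared gave 14 genes higher with Myc in ko in place of 23, with fewer arrays in the fit, and a 1.5-fold minimum gave 5 in ko and 3 in wt. The replicate block gave 29 higher in wt in place of 19, and 1 lower in ko. Leaving out 1 array at a time gave 7 to 23 higher in wt. For Zfx ko against wt with GFP, in place of 3 lower, the block gave 8, array weights 5 (and 1 higher), only the groups compared 0, a 1.5-fold minimum 0, and leaving out 1 array 0 to 2. For Zfx ko against wt with Myc, in place of 0 lower, the block gave 3, array weights 2, median centring 1, a second quantile normalization 1, and leaving out 1 array 0 to 1; the block and the second quantile normalization each gave 1 higher. Nup98 with Myc in wt ranged from -0.035 to 0.049 on the log2 scale when 1 array was left out, and was -0.035 without the first GFP wt array; the cause was not tested. The block changed no other count of the 43 genes by over 1.5 times. All alternatives planned were run; the interaction could not be fitted with only the groups compared.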
